A study of Rattus norvegicus with 4 samples.

Results

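Secreted growth factors of fibroblasts were followed in Rat1 cells, which are rat fibroblasts that grow without limit in culture, through 9 genes: the EGF family ligand Hbegf, the fibroblast growth factors Fgf2 and Fgf7, the platelet-derived growth factor subunit Pdgfa, the vascular growth factor Vegfa, the neurotrophin Bdnf, the transforming growth factors Tgfb1 and Tgfb3, and the macrophage growth factor Csf1. Every probe set of the RG-U34A array that the platform annotation assigns to 1 of these symbols alone was taken, which gave 22 of 8740 probe sets other than the manufacturer's controls, out of 4736 named genes. All cells had been kept for 48 h in 0.1% serum and treated with 4-OHT, and those taken at 90 min had then received 10% serum. Rat1-control (here control) cells carried the control retrovirus, and Rat1-Omomer (here Omomer) cells a retrovirus for Omomer, in which Omomyc is fused to a tamoxifen-inducible part of the estrogen receptor. Omomyc is a Myc mutant that dimerizes with Myc and Max. Total RNA of each cell line was taken at 0 min and at 90 min of serum, and 1 array was hybridized for each of the 4 conditions. With no replicates no test between conditions could be made, and the spread between cultures is unknown. For 2 samples, Omomer cells at 0 min and control cells at 90 min, a label field names the other virus. Samples were assigned by their titles, and every comparison but that of Omomer cells at 90 min with control cells at 0 min uses at least 1 of these arrays. The labels place 4-OHT in the starvation medium, whereas the study's methods add it shortly before serum. The Omomer transgene itself was not analysed here.

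Growth factors of this kind are secreted or shed, bind receptors on the same or on neighbouring cells, and start the kinase cascades through which cells re-enter the cycle. Several of them are themselves early targets of these cascades, so that serum, which contains platelet products, is known to switch on Hbegf, Vegfa or Fgf2 in resting fibroblasts. Others, such as the TGF-beta proteins, are stored in the matrix in a latent form and are controlled to a large extent after transcription.

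Levels are given as the average difference, which is how much brighter the perfect match probes of a probe set are than their mismatch partners on average. The scale is linear and negative values were kept. A floor of 1048, which is 2 times the SD of the noise (524) estimated from the negative values of the 4 arrays, was set before any ratio. A fold against a value under the floor is a bound ("at least"), and a probe set under the floor on both arrays has no fold. Of the 22 probe sets, 18 lay above the floor on at least 1 array, 9 on all 4, and 4 on none. The 4 are S71196mRNA_s_at and S71201mRNA_at of Bdnf, rc_AI059540_at of Hbegf and M22427_at of Fgf2. Passing the floor on the brighter array alone forces a difference, so that counts over the probe sets with a fold are descriptions. As a measure of error, the log2 folds of probe sets of the same gene were compared over 389 genes measured above the floor on all arrays by more than 1 probe set. Their SD within a gene was 0.31 for control cells at 90 min against 0 min and 0.29 for both cell lines at 0 min. It was 0.73 for Omomer cells at 90 min against 0 min, and 0.73 between the cell lines at 90 min, where it was 0.61 without the EST series described next. The Omomer 90 min array stands apart in a further way: of the probe sets in 5 series of expressed sequence tags (EST), which were grouped once these data had been seen and whose IDs begin with rc_AA79, rc_AA80, rc_AA85, rc_AA87 and rc_AA89, 27.2% were at least 3-fold lower there than on the control 90 min array, against 3.30% of all others. Among the growth factors only 1 Vegfa probe set belongs to these series. All 11 fibroblast marker genes on the array, among them Col1a1, Vim and Fn1, were above the floor on all 4 arrays, and no probe set of the epithelial (Krt8, Krt18, Krt19, Epcam) or endothelial (Pecam1, Vwf, Kdr) markers was on any array. Of the leukocyte, neural and muscle markers, 1 or 2 of 8, 1 of 7 and 1 of 8 probe sets were above it on each array.

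**Figure D1:**
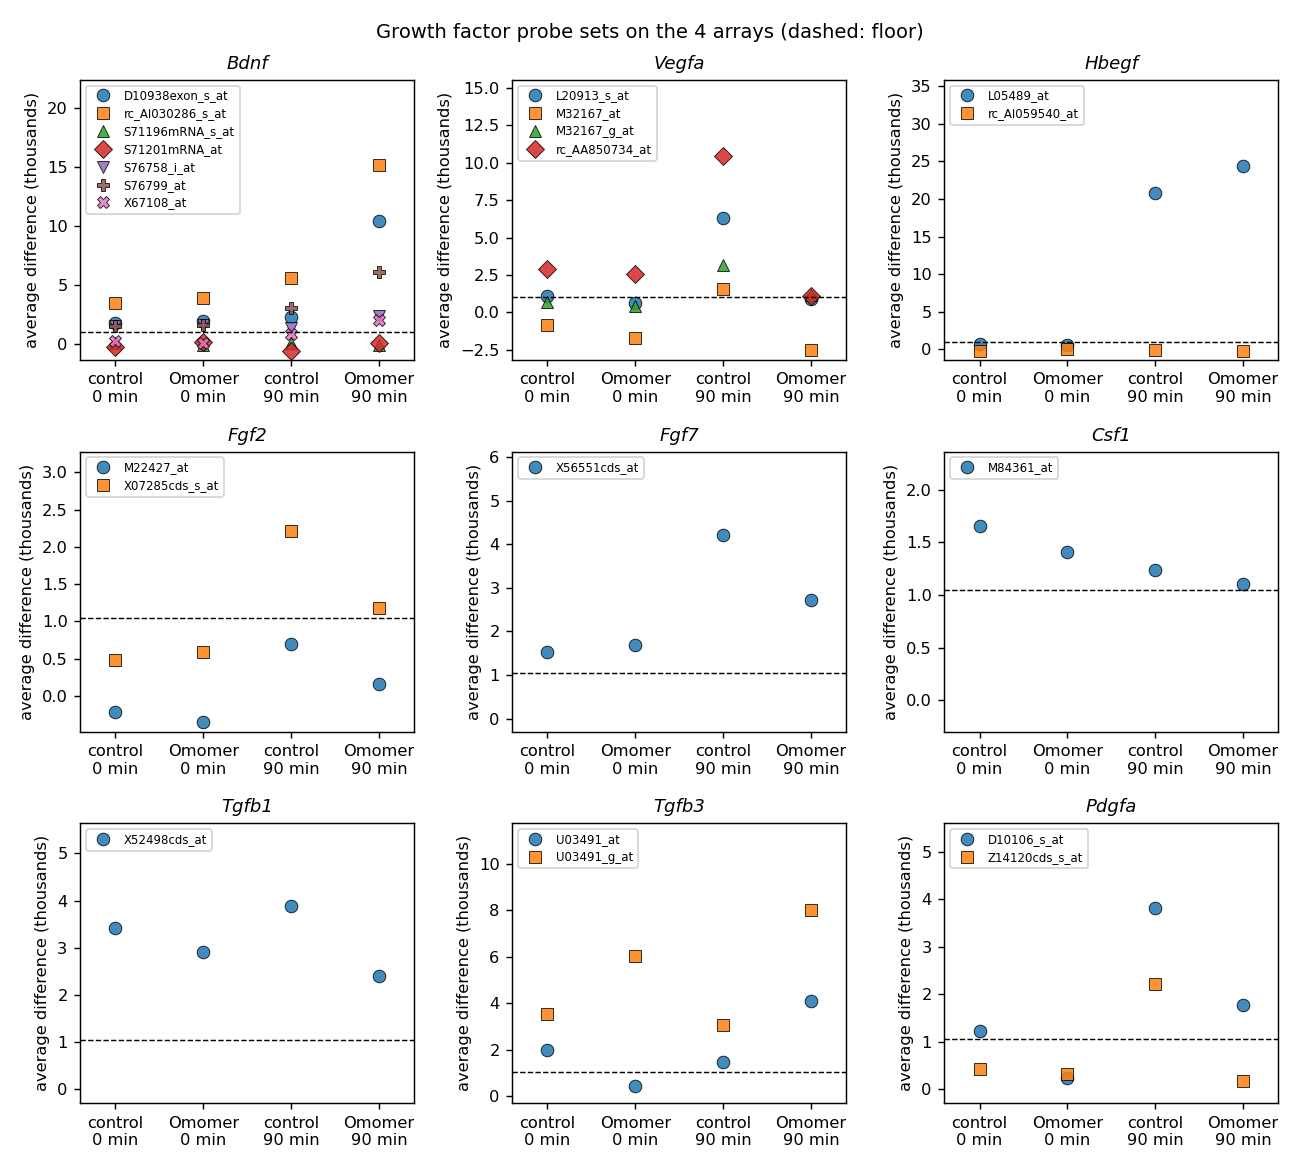
Average difference (linear scale) of every probe set of the 9 growth factor genes on each of the 4 arrays, with the floor of 1048 as a dashed line. Hbegf is high on both 90 min arrays, Vegfa only in control cells at 90 min (10454 on the brightest of its probe sets), and Bdnf is highest in Omomer cells at 90 min (15232).

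In control cells, serum was followed within 90 min by higher values of Hbegf, Vegfa and Pdgfa, and to a lesser extent of Fgf7 and Fgf2. Of the 17 probe sets with a fold, 5 were at least 3-fold higher (29.4%, from these first 3 genes), against 1.93% of the 3985 probe sets of the array with a fold. None was at least 3-fold lower, against 1.81% of the array. The median log2 fold was 0.999 for the growth factors and -0.07 for all probe sets. The genes were chosen with earlier results of these data known, so that these shares are no test.

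In Omomer cells the number was the same, but of the genes only Hbegf was also past 3-fold in control cells. Against their own 0 min array, 5 of 15 probe sets with a fold were at least 3-fold higher (33.3%, background 2.90%), and these belong to Hbegf, Bdnf (3 probe sets) and Tgfb3. None was at least 3-fold lower, against a background of 9.65%, or 3.70% outside the EST series. Vegfa and Pdgfa were not among the higher ones, for Pdgfa by a bound that a lower floor takes past 3-fold. The median log2 fold was 0.69, and 0.09 for all probe sets. Against control cells at 0 min, the reference of the study, 4 of 16 passed 3-fold upwards (25%, background 2.80%), 3 of Bdnf and 1 of Hbegf. None was at least 3-fold lower (background 9.95%, or 4.36% outside the EST series). This comparison shares its 0 min array with that of control cells.

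**Figure D2:**
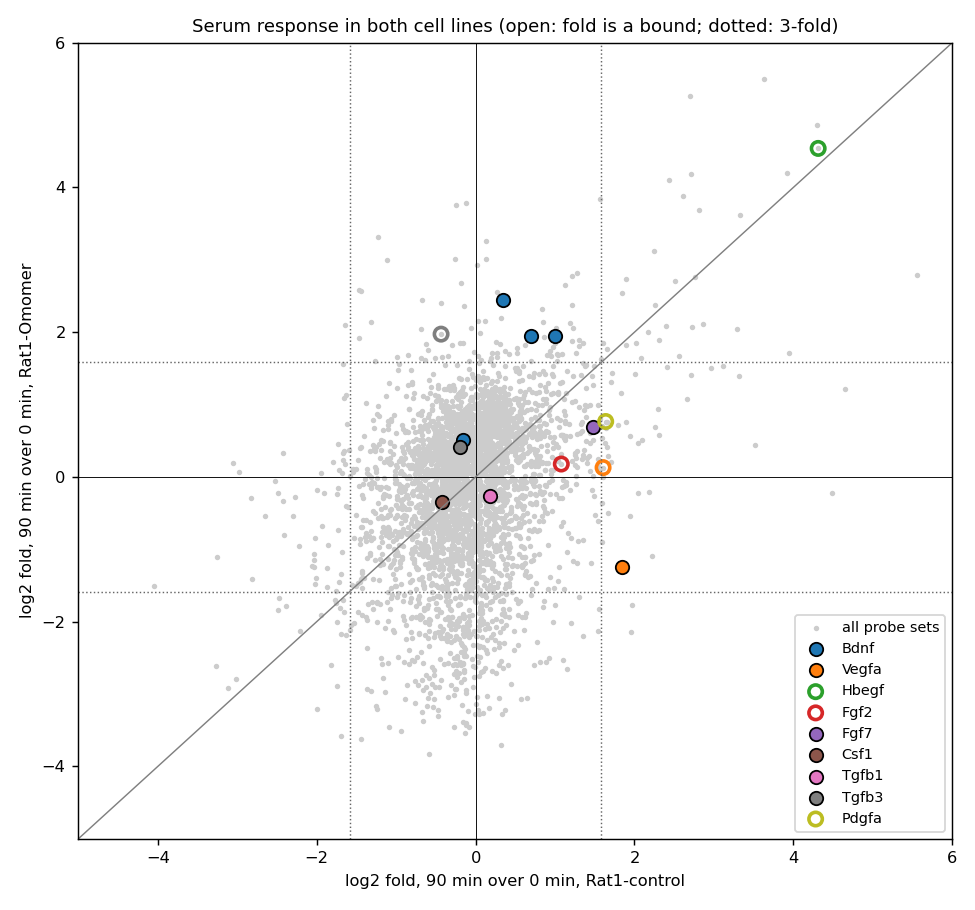
Log2 fold at 90 min over 0 min in control (horizontal) and Omomer cells (vertical), each against its own 0 min array, for the 14 growth factor probe sets with a fold in both (coloured) among 3766 probe sets (grey). Hbegf, a bound, lies at the diagonal. Above 3-fold in Omomer cells only lie 3 Bdnf probe sets and 1 of Tgfb3, the latter as a bound. Below the diagonal lie Vegfa, Fgf7, Fgf2, Pdgfa and, closest to it, Tgfb1. Of these, Fgf2, Pdgfa and the Vegfa probe set M32167_g_at are bounds, and the other Vegfa probe set shown is of the EST series.

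Hbegf, a membrane-anchored ligand of the EGF receptor that is shed by proteases, had the highest fold of the 9 genes in both cell lines. Its probe set L05489_at had 665 in control and 605 in Omomer cells at 0 min, both under the floor, and 20822 and 24371 at 90 min. Both starved arrays were thus low and both serum arrays high. The fold over 0 min was at least 19.9 in control and at least 23.3 in Omomer cells. At 90 min Omomer cells had 1.17 times the value of control cells, a log2 difference of 0.23, less than the SD within a gene. The other probe set of the gene, rc_AI059540_at, gave -144, -3, -50 and -153 and did not measure it above noise.

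Vegfa, the growth factor of vascular endothelium, passed 3-fold after serum in control cells by 3 of its 4 probe sets and in Omomer cells by none, a difference that 1 array per condition cannot test. By its brightest probe set, rc_AA850734_at, it had 2909 in control and 2552 in Omomer cells at 0 min, and 10454 and 1082 at 90 min. L20913_s_at had 1099 and 630 at 0 min, and 6333 and 866 at 90 min. M32167_g_at had 702 and 437 at 0 min, and 3188 and 1146 at 90 min. On each of these 3 probe sets the control 90 min array was the highest, and the Omomer 90 min array lay within 1 noise SD of starved control cells or lower. The folds in control cells were 3.59, 5.76 and at least 3.04, in this order. In Omomer cells the first was 2.36-fold lower at 90 min than at 0 min, the next was under the floor at both times, and the last was at least 1.09-fold higher. The fourth probe set, M32167_at, had negative values on all arrays but the control 90 min array, where it had 1535.

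In the direct comparison at 90 min, all 4 Vegfa probe sets were lower in Omomer cells, by 9.66-fold for rc_AA850734_at, at least 6.04-fold for L20913_s_at, 2.78-fold for M32167_g_at and at least 1.46-fold for M32167_at. The first belongs to the 5 EST series that were low on this array, and the other 3 do not. At 90 min L20913_s_at and M32167_at were above the floor in control cells alone, so that they could only come out lower. The median log2 ratio of all probe sets in this comparison was 0.18. The part of the low values of those series in the Vegfa result was not tested. The 2 probe sets past 3-fold are the only growth factor probe sets at least 3-fold lower between the cell lines (2 of 18 with a fold, 11.1%, background 8.57%). Outside the EST series it was 1 of 17, with a background of 3.30%. At 0 min the cell lines differed by 1.14-fold by rc_AA850734_at, within the SD within a gene.

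Pdgfa, a mitogen of mesenchymal cells that acts through Pdgfra, was likewise highest in control cells at 90 min. D10106_s_at had 1228 in control and 242 in Omomer cells at 0 min, and 3821 and 1782 at 90 min. Z14120cds_s_at had 426 and 327 at 0 min, and 2214 and 179 at 90 min. In Omomer cells the first probe set was above the floor at 90 min, and the other on neither array. The folds over 0 min in control cells were 3.11 and at least 2.11, against at least 1.70 and no fold in Omomer cells. At 90 min Omomer cells were lower by 2.14-fold and by at least 2.11-fold, log2 ratios of -1.10 and at most -1.08, more than the SD within a gene of 0.73. Both the serum fold of D10106_s_at in Omomer cells and the ratio of Z14120cds_s_at are bounds and depend on the floor: with a floor of 1 noise SD their log2 values were 1.77 and -2.08, both past 3-fold. The first is then above the log2 fold of 1.64 in control cells, so that which cell line had the higher serum fold of Pdgfa is not settled.

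Annotated promoters of Vegfa (the first of 2) and Pdgfa are shown because these genes passed 3-fold over 0 min in control cells and, at the floor used, not in Omomer cells. RefSeq (GRCr8) gave 14 promoter windows, from 250 bases before to 50 after an annotated start, for 8 of the 9 genes. Motifs were searched on both strands, and capitals mark GC boxes, GGGCGG, the sites of Sp1-type factors. The 250 bases before the start of Vegfa are chr9:22452604-22452853 on the plus strand, and those of Pdgfa chr12:20759116-20759365 on the plus strand.
Vegfa: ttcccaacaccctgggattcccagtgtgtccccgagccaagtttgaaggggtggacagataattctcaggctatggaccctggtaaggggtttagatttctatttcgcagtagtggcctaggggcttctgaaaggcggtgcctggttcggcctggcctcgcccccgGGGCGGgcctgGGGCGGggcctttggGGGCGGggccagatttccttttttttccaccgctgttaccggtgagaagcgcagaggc
Pdgfa: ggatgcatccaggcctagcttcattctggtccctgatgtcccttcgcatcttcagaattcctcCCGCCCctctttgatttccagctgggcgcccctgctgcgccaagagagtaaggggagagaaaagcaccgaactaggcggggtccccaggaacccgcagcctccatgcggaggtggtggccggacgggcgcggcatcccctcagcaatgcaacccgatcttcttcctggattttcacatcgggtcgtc
Vegfa holds 3 GC boxes, at -84, -73 and -58 from the start, and Pdgfa 1, at -187. A GC box is present in 33.1% of all 33469 windows and in 3 of the 14 windows of the growth factor genes, the last being a window of Bdnf. Neither window holds an E-box CACGTG, the site of Myc/Max dimers, which is present in 6.42% of all windows. A CArG box, the site of serum response factor, was in none of the 14 windows (1.64% of all). These are matches of letters and not sites shown to be bound.

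The fibroblast growth factors Fgf2, a heparin-binding mitogen of many cell types, and Fgf7, which fibroblasts make and epithelial cells respond to, were higher after serum, Fgf7 by less than 3-fold and Fgf2 by a bound. Fgf7 (X56551cds_at) had 1518 in control and 1689 in Omomer cells at 0 min, and 4218 and 2722 at 90 min. Fgf2 (X07285cds_s_at) had 480 and 593 at 0 min, both under the floor, and 2214 and 1186 at 90 min. For both genes control cells at 90 min were highest and Omomer cells at 90 min came next. Fgf7 was 2.78-fold higher in control and 1.61-fold higher in Omomer cells, and Fgf2 at least 2.11-fold and at least 1.13-fold. With a floor of 1 noise SD the log2 fold of Fgf2 in control cells was 2.08, past 3-fold. Between the cell lines at 90 min, the log2 ratio was -0.63 for Fgf7, which lies between the SD within a gene without and with the EST series (0.61 and 0.73), and -0.90 for Fgf2, above both. The other Fgf2 probe set, M22427_at, was under the floor everywhere, between -350 and 698.

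Bdnf, a neurotrophin best known from neurons that fibroblasts also transcribe, had the highest fold of Omomer over control cells at 90 min among the 9 genes. The brightest probe set, rc_AI030286_s_at, had 3450 in control and 3933 in Omomer cells at 0 min, and 5617 and 15232 at 90 min. D10938exon_s_at had 1817 and 1923 at 0 min, and 2316 and 10467 at 90 min. S76799_at had 1514 and 1572 at 0 min, and 3026 and 6067 at 90 min. In each of the 3, the 0 min arrays were close to each other, control cells at 90 min were above them, and Omomer cells at 90 min were highest. The folds over 0 min were 1.63, 1.27 and 1.999 in control cells and 3.87, 5.44 and 3.86 in Omomer cells. In the direct comparison at 90 min these probe sets were 2.71-fold, 4.52-fold and 2.005-fold higher in Omomer cells. D10938exon_s_at was the only growth factor probe set at least 3-fold higher there (1 of 18, 5.56%, background 2.22%).

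Fainter Bdnf probe sets were also higher in Omomer cells at 90 min. S76758_i_at had 1533 and 1650 at 0 min, and 1377 and 2339 at 90 min, so that control cells at 90 min were lowest and Omomer cells at 90 min 1.70-fold above them. X67108_at was under the floor on 3 arrays (220, 100 and 806) and had 2040 in Omomer cells at 90 min, at least 1.95-fold higher than in control cells. Altogether 5 of the 5 Bdnf probe sets with a fold were higher in Omomer cells at 90 min, none of them in the EST series. X67108_at, at 90 min above the floor in Omomer cells alone, could only come out higher. Outside the EST series the median log2 ratio of all probe sets was 0.32 in this comparison, so that a higher value was common. All 7 Bdnf probe sets measure transcripts of the same gene and are not replicates. Which of its transcripts each detects was not determined.

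Bdnf has several alternative first exons, and 6 of the 14 promoter windows are its own. Its sequences are shown because only here does an E-box occur among the growth factor windows. In the window chr3:116620585-116620884, plus strand, CACGTG lies at 20 bases after the start, and the 30 bases around it are chr3:116620842-116620871. The window chr3:116637608-116637907, plus strand, holds the core TGACG of the cAMP response element, found on the other strand at -35, and its 250 bases before the start (chr3:116637608-116637857) are given with the core in capitals.
Bdnf E-box: caaagccatccgCACGTGacaaaacgtaag
Bdnf core: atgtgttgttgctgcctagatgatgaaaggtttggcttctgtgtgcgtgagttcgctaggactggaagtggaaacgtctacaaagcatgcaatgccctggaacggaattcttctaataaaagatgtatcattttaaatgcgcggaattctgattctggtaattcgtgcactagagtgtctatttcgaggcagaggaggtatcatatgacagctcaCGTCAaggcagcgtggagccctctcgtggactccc
This core occurs in 21.2% of all windows and in 4 of the 14, the others being those of Hbegf, Fgf2 and Tgfb1. The full element TGACGTCA, which contains it, was in none of the 14 (1.83% of all). AP-1 sites were searched as TGANTCA, with any base in the middle. A match was in 1 window, of Bdnf, where it reads TGAATCA (7.33% of all).

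**Figure D3:**
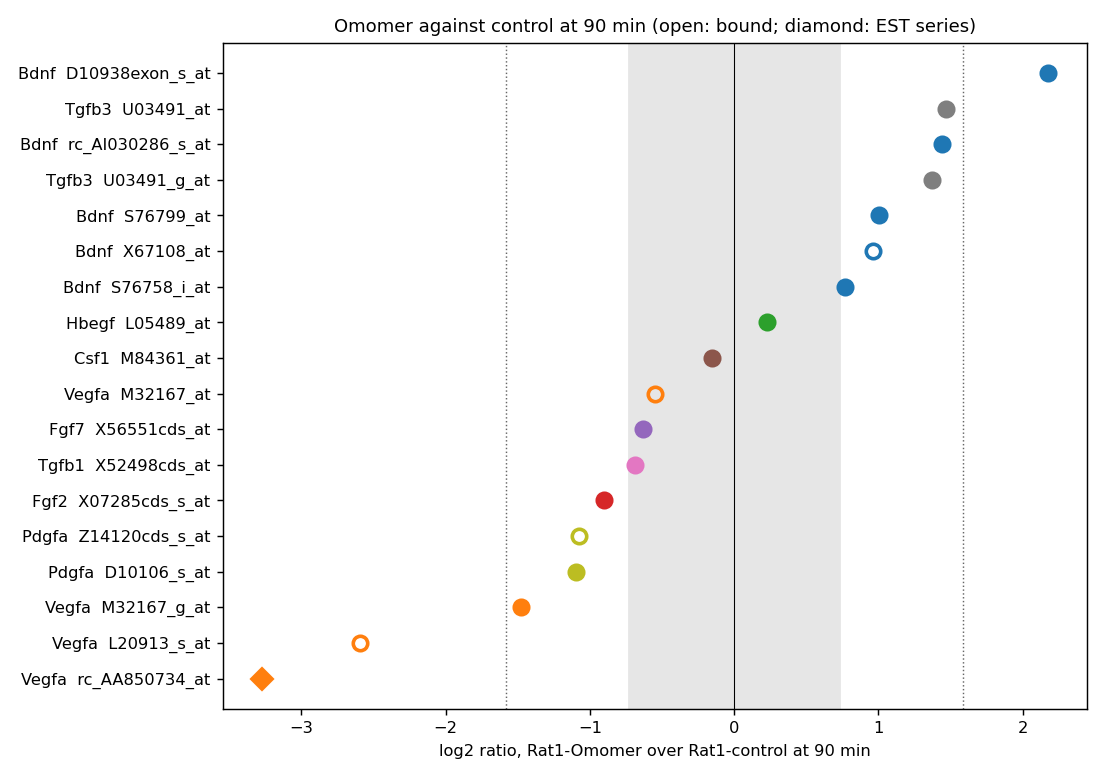
Log2 ratio of Omomer over control cells at 90 min for the 18 growth factor probe sets with a fold; open symbols are bounds, the diamond is the probe set of the EST series, dotted lines mark 3-fold, and the grey band is 1 SD within a gene (0.73) on either side of 0. Bdnf and Tgfb3 lie to the right of the band, Pdgfa, Fgf2 and 3 of 4 Vegfa probe sets to the left.

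Tgfb1 and Tgfb3, related cytokines that drive matrix synthesis, differed from each other. Tgfb1 (X52498cds_at) had 3426 in control and 2901 in Omomer cells at 0 min, and 3884 and 2406 at 90 min. These 4 values lie close together, with folds over 0 min of 1.13 higher in control and 1.21 lower in Omomer cells. At 90 min Omomer cells were 1.61-fold lower, a log2 ratio of -0.69, between the SD within a gene without and with the EST series.

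Tgfb3 was higher in Omomer cells at 90 min by both probe sets. U03491_g_at had 3539 in control and 6036 in Omomer cells at 0 min, and 3092 and 8008 at 90 min. U03491_at had 2012 and 438 at 0 min, and 1489 and 4115 at 90 min. At 90 min Omomer cells were 2.59-fold higher by the first and 2.76-fold higher by the other, log2 ratios of 1.37 and 1.47. At 0 min both disagree, with Omomer cells 1.71-fold higher by U03491_g_at and at least 1.92-fold lower by U03491_at. The serum response of Omomer cells is therefore not settled: 1.33-fold higher by the first and at least 3.93-fold higher by the other. In control cells Tgfb3 was 1.14-fold and 1.35-fold lower at 90 min.

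Csf1, which controls growth and survival of macrophages, was near the floor on all arrays. M84361_at had 1658 in control and 1409 in Omomer cells at 0 min, and 1233 and 1107 at 90 min. The 90 min arrays were below both 0 min arrays. The folds were 1.34 and 1.27 lower over 0 min, and the cell lines differed by 1.11-fold at 90 min. The log2 folds over 0 min were -0.43 and -0.35, beside SDs within a gene of 0.31 and 0.73.

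A 2-fold threshold takes in more of these genes. In control cells 8 of 17 were at least 2-fold higher over 0 min (background 5.45%), of Hbegf, Vegfa, Pdgfa, Fgf2 and Fgf7, and none at least 2-fold lower (7.23%). In Omomer cells 5 of 15 were at least 2-fold higher over 0 min (9.19%), and 1 at least 2-fold lower (17.5%), the Vegfa probe set of the EST series. Against starved control cells 6 of 16 Omomer probe sets were higher by this measure (10.1%), now with Tgfb3, and 1, the same Vegfa probe set, was lower (18.2%). Between the cell lines at 90 min, 5 of 18 were at least 2-fold higher in Omomer cells (10.1%), 3 of Bdnf and both of Tgfb3. Another 5 were at least 2-fold lower (15.7%), both of Pdgfa and 3 of Vegfa, again with that of the EST series. These backgrounds include the EST series, and at 2-fold the shares outside them were not computed.

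At 0 min the growth factors differed little between the cell lines. Of 12 probe sets with a fold, none was at least 3-fold higher or lower in Omomer cells, against 0.251% and 0.503% of the array, and at 2-fold none likewise, against 1.41% and 1.71%. The median log2 ratio was -0.01, and 0.01 for all probe sets. The largest difference was that of the Tgfb3 probe set U03491_at named above.

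By its own noise, the Omomer 90 min array would have a floor of 1228. The values of Vegfa (1082 and 1146), Fgf2 (1186) and Csf1 (1107) on that array lie between both floors. With a floor for each array, Vegfa was at least 8.52-fold lower in Omomer cells at 90 min by rc_AA850734_at and at least 5.16-fold lower by L20913_s_at. Fgf2 was then at least 1.80-fold lower at 90 min and had no fold over 0 min in Omomer cells.

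Of other secreted growth factors, 34 listed genes had 61 probe sets on the array, and 19 genes with 24 probe sets were above the floor on at least 1 array. In control cells 2 of 21 with a fold passed 3-fold upwards (background 1.93%), both of Nrg1, a ligand of ErbB receptors. Its brightest probe set, U02322_s_at, had 1361 in control and 1168 in Omomer cells at 0 min, and 5231 and 1734 at 90 min. Nrg1 was thus highest in control cells at 90 min, as Vegfa and Pdgfa were, with log2 folds over 0 min of 1.94 in control and 0.57 in Omomer cells, and a 3.02-fold lower value in Omomer cells at 90 min. In Omomer cells 2 of 19 did so over 0 min (background 2.90%): the activin subunit Inhba at 3.17-fold (1.93-fold in control cells) and the neurotrophin Ntf4 at least 3.34-fold (1.91-fold). Ccn1, a matricellular protein of the serum response, was 1.89-fold higher in control and 2.92-fold lower in Omomer cells over 0 min, by a probe set of the 5 EST series. Igf2, the other bright gene of the list, was 1.49-fold higher in Omomer cells at 90 min over 0 min by M17960_g_at and 2.20-fold higher by M17960_at. In control cells it was 1.11-fold lower by the first and 1.17-fold higher by the other. All further probe sets of Igf2, and the second probe set of Ntf4, were under the floor on all arrays. The median log2 fold of the list was 0.22 in control and 0.42 in Omomer cells, beside 0.999 and 0.69 for the 9 genes.

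The receptors through which these factors act were not higher after serum as a group. Of 19 receptor genes with 34 probe sets, 12 were above the floor on at least 1 array. In control cells none of 14 probe sets passed 3-fold in either direction (background 1.93% higher and 1.81% lower), with a median log2 fold of -0.22. In Omomer cells 1 of 16 was at least 3-fold higher over 0 min (background 2.90%), with a median of 0.07. At least 3-fold lower were 2 (9.65%, or 3.70% outside the EST series). Nrp1, a co-receptor of Vegfa, was lower in both cell lines, by 2.80-fold and 2.75-fold, from 10069 and 10561 at 0 min to 3596 and 3837. Erbb2, a partner of the receptors of Hbegf, was 2.35-fold lower in control and at least 4.01-fold lower in Omomer cells. Pdgfra, the receptor of Pdgfa, had 19258, 21288, 12868 and 22001 by its brightest probe set, in control and Omomer cells at 0 min and then in both at 90 min. A fainter Pdgfra probe set, Z14118cds_g_at, had 2729, 1905, 1366 and 857, and was lowest where the bright one was highest.

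For Fgfr1, a receptor of Fgf2, and Ngfr, which binds neurotrophins, probe sets of the same gene parted on the Omomer 90 min array. Fgfr1 had 5664, 2944, 7585 and 9551 by D12498_s_at and 4714, 2992, 6298 and 756 by S54008_i_at, in the same order of arrays. Ngfr had 8362, 7099, 8212 and 411 by U25650_f_at and 1445, 1189, 1371 and 1774 by X05137_at. Their levels in Omomer cells at 90 min are thus not settled. None of these probe sets belongs to the 5 EST series. Csf1r, the receptor of Csf1, and Kdr, a receptor of Vegfa, were under the floor on all 4 arrays.

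**Figure D4:**
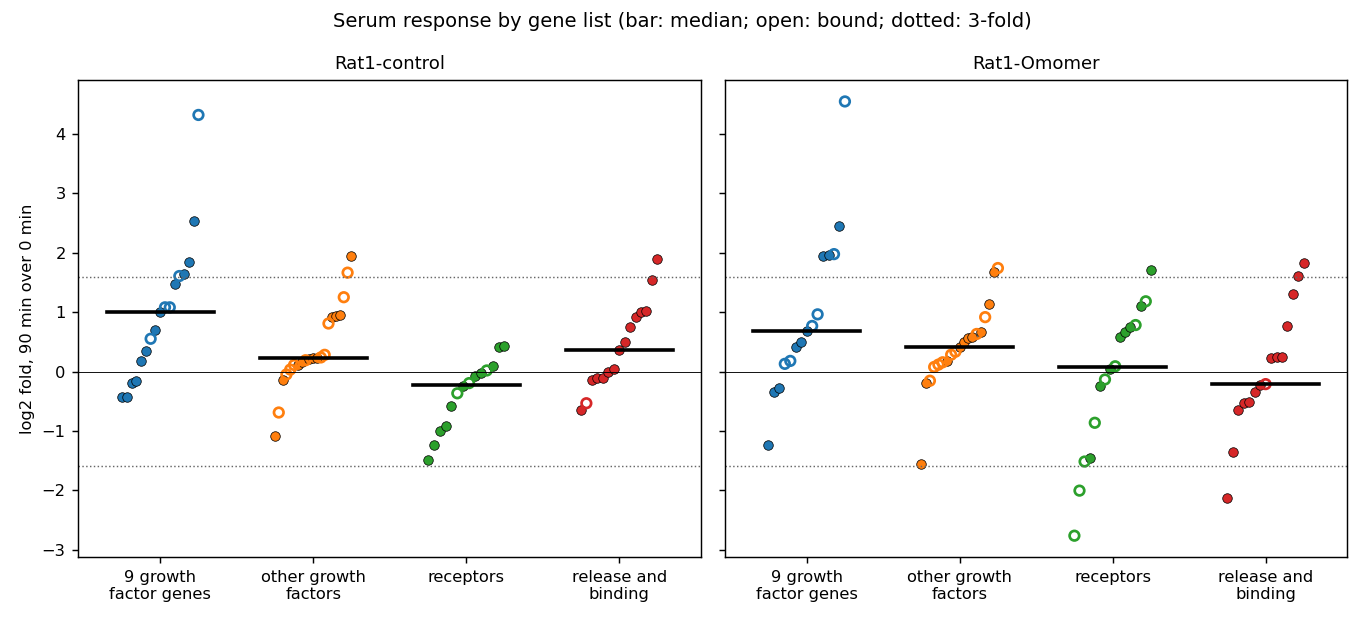
Log2 fold at 90 min over 0 min for the probe sets of the 9 growth factor genes and of 3 lists of related genes, in control (left) and Omomer cells (right); bars are medians, open symbols bounds and dotted lines 3-fold. The median of the 9 genes is 0.999 and 0.69, and that of the receptors -0.22 and 0.07.

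Genes with the most similar pattern were sought over the 3 log2 folds against control cells at 0 min, among 1618 other genes above the floor on all arrays, for the 6 growth factors that are above it on all arrays by their brightest probe set. Nearest to Bdnf was the chemokine Cxcl6, with a root mean square difference of 0.23, and then the kinase Cdk17 (0.25). Cxcl6 had 1355 and 1395 in control and Omomer cells at 0 min, and 1953 and 4790 at 90 min. Nearest to Vegfa were the bicarbonate transporter Slc4a7 (0.32, a probe set of the 5 EST series) and Ltbp1 (0.48), which binds latent TGF-beta. Ltbp1 had 4153 and 6171 at 0 min, and 12115 and 1416 at 90 min. Fgf7 was close to Pakap (0.09) and Slc5a3 (0.09), Tgfb3 to the ion transporter Slc12a2 (0.06) and to Snap29 (0.12), Tgfb1 to Sh3gl1 (0.07) and Ptbp1 (0.09), and Csf1 to Mgmt (0.06) and Acsl1 (0.08). The match of Tgfb3 used U03491_g_at, whose higher value in Omomer cells at 0 min was not shared by the other probe set of the gene. Likeness over 4 arrays is a description only.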

How the data were processed

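RNA of 4 conditions was hybridized to 1 RG-U34A array each. The authors computed average difference intensities with MAS 4 at default settings, scaled the arrays and deposited the values on a linear scale. They rest on perfect match minus mismatch signal, so that dim probe sets can be negative. Precision is limited by having 1 array per condition. Symbols came from the platform annotation (7006 probe sets with 1 symbol, 308 with several and 1426 with none), and were updated by gene ID for 6985 through the RefSeq table of GRCr8. Values under the floor (2 noise SDs, from the median absolute negative value) were raised to it, and a 3-fold ratio of floored values was the threshold, in place of the MAS 4 Fold Change of the study. The calls were tested on simulated data. No result of that test is given here, so no conclusion is drawn from it about values near the floor or about bounds. The 9 genes, the lists and the comparisons were chosen with earlier results of these data known. Named are all 9 genes with every probe set. Of the lists, genes past 3-fold in any comparison and the 2 brightest of each were to be named. For each gene above the floor on all arrays, the 2 genes nearest in pattern were named. The immediate early genes served as a check of the serum response. Alternatives were floors of 1 and 4 noise SDs or of each array, median scaling, quantile normalization, a 2-fold threshold, no bounds, no EST series, and the median of the probe sets of a gene. Python 3.11.15, numpy 2.4.6, pandas 2.3.3 and matplotlib 3.10.9 were used.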

Additional observations from a re-analysis of the deposited data

Results flagged for a closer look

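The serum responses of the cell lines ran in opposite directions for 2 growth factor probe sets, with at least 1 of both folds past 3-fold. For Vegfa rc_AA850734_at the log2 fold over 0 min was lower in Omomer than in control cells by a difference of -3.08 (-1.24 against 1.85). This probe set belongs to the 5 EST series, of which 29.6% were at least 3-fold lower over 0 min in Omomer cells, against 3.70% of all others. No other Vegfa probe set was lower over 0 min in Omomer cells: M32167_g_at was at least 1.09-fold higher and the others had no fold. For Tgfb3 U03491_at it was higher by 2.41, a bound, since the Omomer 0 min value was under the floor. With 1 array per condition these differences were not tested.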

How the results depend on the processing

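No paired analysis was possible because each condition has 1 array. Of the 10 counts of growth factor probe sets past 3-fold (higher and lower in 5 comparisons), none moved by over 1.5 times with median scaling, quantile normalization or a floor for each array. With a floor of 1 noise SD, 1 probe set instead of 0 was at least 3-fold lower in Omomer than in control cells at 0 min, Tgfb3 U03491_at. The counts higher over 0 min were then 7 in control cells, with 1 probe set each of Fgf2 and Pdgfa added, and 7 in Omomer cells, with Bdnf X67108_at and Pdgfa D10106_s_at added. With a floor of 4 noise SDs, 3 instead of 5 were higher over 0 min in control cells and 3 instead of 5 in Omomer cells, in both cases with Hbegf. When both arrays had to be above the floor the counts were also 3 and 3, but without Hbegf, whose 0 min values are under the floor. In that last setting, and equally without the 5 EST series, 1 instead of 2 was lower in Omomer cells at 90 min. A 2-fold threshold gave 8 higher in control cells, 1 lower in Omomer cells over 0 min and 1 over starved control cells, and 5 higher and 5 lower between the cell lines at 90 min. Fewer values pass each stricter rule by its construction. No fold past 3-fold turned its direction under any alternative. A change of a common floor cannot turn a fold, and folds lost under a higher floor were not counted. Both scalings moved the median log2 fold of all probe sets by at most 0.0755. This outcome was thus largely fixed in advance. With the median of the probe sets of a gene in place of the brightest, 4 gene values moved by over 1 SD within a gene. The log2 ratio of Vegfa between the cell lines at 90 min went from -3.27 to -2.04, still past 3-fold. That of Vegfa in Omomer cells at 90 min against control cells at 0 min went from -1.43 to -0.07. The log2 fold of Tgfb3 over 0 min in Omomer cells went from 0.41 to 1.19. The log2 ratio of Tgfb3 at 0 min, which is not past the threshold, went from 0.77 to -0.09. Of 78 growth factor folds, 18 moved by over 1 SD within a gene with the floor of 1 noise SD, as did 18 of 52 with that of 4 noise SDs and 0 with either scaling.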

Other observations

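Among genes for the release and binding of growth factors, the heparan sulfate proteoglycan Sdc4, which holds heparin-binding factors at the cell surface, was higher after serum in both cell lines. By S61868_at it had 11189 in control and 10455 in Omomer cells at 0 min, and 41644 and 36957 at 90 min, 3.72-fold and 3.53-fold higher. By S61868_g_at it was 2.03-fold and 3.03-fold higher. Ltbp1 was 2.92-fold higher in control and 4.36-fold lower in Omomer cells over 0 min, and 8.56-fold lower in Omomer cells at 90 min. Furin, a convertase that cleaves precursors such as those of TGF-beta, was lower in Omomer cells at 90 min by both probe sets, by 2.22-fold and 2.57-fold, and is named here after its values were seen. Bgn, the brightest gene of the list, had 36760, 33544, 34032 and 39170 by U17834_at in control and Omomer cells at 0 min and in both at 90 min. Of the 15 probe sets with a fold, 1 was at least 3-fold higher over 0 min in control cells (array 1.93%), and in Omomer cells 2 were (2.90%). In Omomer cells 1 was at least 3-fold lower (9.65%, or 3.70% outside the EST series).

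Immediate early genes, a check of the serum response, were in part already high in starved control cells, and in part, as Fosl1 and Myc, near or under the floor there. Egr1, the brightest, had 66526 and 63281 in control and Omomer cells at 0 min, and 71472 and 146952 at 90 min (AF023087_s_at). Of 27 probe sets of 12 such genes, 2 were at least 3-fold higher in control cells at 90 min, of Myc and Fosl1 (array 1.93%), and 7 at least 3-fold lower (1.81%), of Fos, Ier3 and Jun. At 0 min 6 of 25 were at least 3-fold lower in Omomer than in control cells, of Dusp1, Fos and Jun (array 0.503%), and none was higher. Over this start 9 of 26 were at least 3-fold higher in Omomer cells, of Dusp1, Egr2, Klf4, Myc and Nr4a1 (array 2.90%). Lower were 2, of Jun and Junb (9.65%, or 3.70% outside the EST series). The lower Junb probe set, rc_AA891041_at, belongs to the 5 EST series, and the other, X54686cds_at, was 1.91-fold higher. Between the cell lines at 90 min, 7 of 25 were at least 3-fold higher in Omomer cells, of Dusp1, Klf4 and Nr4a1 (array 2.22%). Another 2 were lower, of Fosl1 and Junb (8.57%). Nr4a1 had 16461 and 6195 at 0 min, and 15137 and 85746 at 90 min (U17254_g_at). Myc had 1172 and 2307 at 0 min, and 4980 and 7233 at 90 min (Y00396mRNA_g_at). The other Myc probe set, Y00396mRNA_at, had 222 and 534, and then 1171 and 159, and so was lower in Omomer than in control cells at 90 min. Fosl1, a subunit of AP-1, was at least 11.4-fold higher in control and at least 1.36-fold higher in Omomer cells.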
